A study of Saccharomyces cerevisiae with 11 samples.

Results

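Yeast box C/D snoRNAs are nucleolar RNAs that guide 2′-O-methylation of rRNA, and most of them start as capped precursors whose 5′ extension is cut off by Rnt1, the nuclear RNase III. The data below concern 10 monocistronic genes of this Rnt1-dependent (RD) kind: SNR40, SNR47, SNR48, SNR60, SNR62, SNR64, SNR66, SNR68, SNR71 and SNR79. They were taken by name from the study's list of snoRNA genes. The sorting of that list was made with peak calls of these data known, and genes that lack a replicated Rnt1 peak are not among the 10, so their Rnt1 peak count is a description. They make up 10 of the 18 monocistronic RD box C/D genes and 10 of the 76 nuclear snoRNA genes annotated in the R64 (sacCer3) genome. The study asked where cap-binding complex (CBC) and Rnt1 sit on snoRNA genes. Of its 11 samples, 4 have a file here, namely ChIP-seq peak lists of Cbp20 and Rnt1 with 2 replicates each. ChIP-seq sequences DNA crosslinked to a protein and recovered with an antibody, and a peak is a stretch where such DNA exceeded background.

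Both strains were MATa and carried the same auxotrophic deletions (his3delta_1, leu2delta_0, met15delta_0 and ura3delta_0), were grown in rich YPD medium at 30 °C, and were precipitated with an antibody against the myc tag. The Rnt1 libraries came from a strain with RNT1-myc13::NAT. The libraries titled Cbp20-myc came from a strain whose listed genotype reads CBP80-myc13::NAT, which is the partner subunit of Cbp20 in CBC. The name Cbp20 is kept here, but which of the 2 subunits bore the tag could not be settled from the labels. No untagged strain was used here as a control. In the labels a number is given to 1 of the 2 libraries of a strain only, which is replicate 2 below and its partner replicate 1. The methods state in general that experiments were repeated biologically, without describing the ChIP-seq replicates one by one, and the labels say nothing on cultures. They also state that several immunoprecipitations were pooled for ChIP-seq, so a library here stands for a pool.

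The Cbp20 lists held 3801 and 3648 peaks in replicates 1 and 2, and the Rnt1 lists 1238 and 1741. The Cbp20 peaks covered 23.1% and 21.6% of the nuclear genome and the Rnt1 peaks 5.92% and 9.98%. The peaks have positions only, without height or read number, so the depth behind them is unknown and neither occupancy nor its error could be given. Wider regions in the longer of the Rnt1 lists cannot be told apart from a deeper library.

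CBC binds the cap of a new Pol II transcript and stays with it through nuclear processing. Rnt1 recognises RNA hairpins closed by a tetraloop, most often of the form AGNN, and cuts the stem at a fixed distance from the loop, after which exonucleases trim to the mature 5′ end. At the other end, transcription of these short genes is stopped by the Nrd1-Nab3-Sen1 (NNS) complex, whose RNA-binding subunits read short motifs in the nascent transcript. In the finished RNA, boxes C and D bind the core proteins of the particle, and the bases just before box D or the inner box D′ pair with rRNA. The methylated rRNA base is the one that pairs with the fifth base upstream of the box.

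The precursor hairpins come first, since Rnt1 cuts such hairpins and the peaks can be placed against them. The search below did not define the class. The paper sorted snoRNA genes by 5′ end processing from RNA-seq of 5′-extended precursors in a strain without RNT1, together with earlier published data. AGNN in the 300 bases upstream of the mature 5′ end was folded with 25 bases on either side, and the hairpin of lowest energy was kept where it closed that tetraloop with at least 10 base pairs. Both flanks had to lie within the 300 bases. Loops starting within 28 bases of the mature 5′ end, or in the farthest 25 bases, were therefore not folded. This rule found a hairpin in 6 of the 10 genes, against 7.48% of all nuclear genes. A looser rule of 20 bases and 8 pairs, chosen after the data were seen because 4 genes lacked a hairpin, gave 8 of 10 against 10.3%. It added the SNR60 and SNR62 hairpins. SNR48, whose hairpin is known to carry an AAGU loop, passed a search for AAGT under the stricter rule, also added after the data were seen, which 1.1% of nuclear genes passed. SNR71 had no hairpin under any of these rules. The paper nevertheless lists NET-seq (nascent RNA) signal over a predicted or known Rnt1 cleavage site at SNR71. It lists none at SNR66, whose hairpin is printed below. The hairpins are shown 5′ to 3′ as DNA of the sense strand, with the tetraloop in capitals, and the arms on either side of the capitals pair with each other over 10 to 20 base pairs, leaving 0 (SNR66) to 14 (SNR40) unpaired bases.
SNR40 (chrXIV:89096-89147, + strand): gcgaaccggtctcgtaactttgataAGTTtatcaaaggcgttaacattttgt
SNR47 (chrIV:541734-541782, - strand): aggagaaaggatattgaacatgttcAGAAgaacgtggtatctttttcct
SNR48 (chrVII:609461-609514, + strand): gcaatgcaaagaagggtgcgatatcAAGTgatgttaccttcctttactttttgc
SNR60 (chrX:349305-349342, - strand): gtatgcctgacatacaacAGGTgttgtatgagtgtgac
SNR62 (chrXV:409885-409926, - strand): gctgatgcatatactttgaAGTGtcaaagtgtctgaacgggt
SNR64 (chrXI:38703-38752, + strand): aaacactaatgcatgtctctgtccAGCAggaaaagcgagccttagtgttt
SNR66 (chrXIV:586023-586046, + strand): tgaataactcAGATgagttattta
SNR68 (chrIX:96972-97019, + strand): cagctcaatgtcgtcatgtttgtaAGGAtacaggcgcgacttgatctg
SNR79 (chrXII:348568-348607, - strand): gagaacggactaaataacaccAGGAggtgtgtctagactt

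Predicted energies are those of the whole folded stretch, the tetraloop with 25 bases on either side, of which the printed hairpin is a part. Among the 6 hairpins of the stricter AGNN rule, the stretch with the SNR47 hairpin had the lowest, -17.8 kcal/mol with 20 base pairs in the stem. That with the SNR68 hairpin followed with -17.5 kcal/mol and 19 pairs. SNR66 had the shortest stem, 10 pairs in a stretch of -9.4 kcal/mol, and SNR79 had 12 pairs in a stretch of -8.7 kcal/mol. The first base of the loop lay between 43 bp (SNR62) and 115 bp (SNR68) upstream of the mature 5′ end across the 9 genes. By the stricter rule 5 of the other 8 monocistronic RD box C/D genes also had an AGNN hairpin, and none of 5 capped box C/D genes (SNR4, SNR13, SNR45, SNR17A and SNR17B), which keep their cap and are not cut by Rnt1 at the 5′ end.

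The mature RNAs are shown for SNR40, which departs from the common box C, for SNR47 and SNR60, which guide more than 1 methylation, for SNR62, which 1 of the Rnt1 peaks covers only in part, and for SNR79, whose single target is in 18S rRNA. Capitals mark box C (TGATGA), box D (CTGA) and the stretch that can pair with rRNA, with G-U pairs allowed. In SNR40 and SNR60 a guide runs directly into box D, and in SNR79 the pairing includes box D itself.
SNR40 (chrXIV:89210-89306, + strand): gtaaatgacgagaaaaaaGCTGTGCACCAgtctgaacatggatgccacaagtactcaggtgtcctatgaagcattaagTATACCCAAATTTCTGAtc
SNR47 (chrIV:541602-541700, - strand): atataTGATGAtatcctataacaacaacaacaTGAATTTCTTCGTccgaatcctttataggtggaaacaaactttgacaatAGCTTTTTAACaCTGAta
SNR60 (chrX:349130-349233, - strand): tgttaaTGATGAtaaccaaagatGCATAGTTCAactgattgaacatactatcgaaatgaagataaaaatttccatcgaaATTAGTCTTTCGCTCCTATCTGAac
SNR62 (chrXV:409765-409864, - strand): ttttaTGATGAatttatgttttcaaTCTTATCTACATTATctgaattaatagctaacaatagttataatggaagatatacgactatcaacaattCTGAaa
SNR79 (chrXII:348427-348510, - strand): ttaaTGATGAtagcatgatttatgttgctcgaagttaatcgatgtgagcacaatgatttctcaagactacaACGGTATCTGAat

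All 10 genes ended in CTGA followed by 2 bases, a pattern found in 31 of the 76 nuclear snoRNA genes (40.8%) and in 0.482% of all nuclear genes. TGATGA stood within the first 12 bases in 9 of 10, all but SNR40, against 46.1% of snoRNA genes. The 10 were chosen from the class that these boxes define, and the 76 also include box H/ACA genes. The shares are therefore not those of box C/D genes alone. The annotation names 14 methylated rRNA bases for the 10 genes, 11 in 25S and 3 in 18S rRNA, and in each case the reference rRNA had the named base at the named position. SNR40 is assigned 25S U898 and 18S G1271, SNR47 25S A2220 and 18S A619, SNR48 25S G2791 and G2793, and SNR60 25S A817 and G908. The other 6 genes are assigned a single base each: 25S U1888 for SNR62, C2337 for SNR64, U2417 for SNR66, A2640 for SNR68 and A2946 for SNR71, and 18S C1007 for SNR79. The pairing stretches were 10 to 19 bases long, with the longest in SNR60 for G908. Counting 5 bases on from the paired base led to a perfect CTGA in 8 of the 14 cases and to a box with 1 mismatch in 4. Both SNR48 targets share a single stretch of 17 bases and led to boxes with at least 2 mismatches.

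With the exception of SNR60, all of these genes lay outside other annotated genes. The 3′ part of SNR60 overlapped the small open reading frame YJL047C-A, on the same strand, by 49 bp, and its upstream neighbour RTT101 was 346 bp away. Distances to the nearest gene ranged from 66 bp (LIN1, convergent with SNR71) to 482 bp (SPR3, upstream of SNR48). Only SNR40, SNR47 and SNR48 had no other gene within 300 bp on either side.

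Every one of the 10 genes carried a Cbp20 peak and a Rnt1 peak in both replicates, and in each list a single peak lay over each gene. By the same rule (an overlap of at least 1 bp in both replicates) Cbp20 peaks lay on 45.5% of the 6431 nuclear genes and on 21.6% of 100-bp windows of the genome, and Rnt1 peaks on 17.5% of genes and 6.52% of windows. The Cbp20 peaks covered the whole mature snoRNA in 10 of 10 genes and the Rnt1 peaks in 9 of 10. Every one of these peaks was longer than the mature snoRNA, and no share over all nuclear genes is given for whole cover. The exception was SNR62, where the Rnt1 peak of replicate 1 reached only 11 bp into the 3′ end of the mature sequence. Among the other 8 RD genes, 8 had a Cbp20 peak and 5 a Rnt1 peak in both replicates, with SNR50, SNR58 and SNR69 the remaining ones. All 5 capped genes had both. The whole mature snoRNA was covered in both replicates in the same 8 and 5 RD genes, and in 3 of the 5 capped genes for either protein. Genes lacking a replicated Rnt1 peak had been kept out of the 10, so 10 of 10 for Rnt1 was set by that sorting. The differences between classes were not tested.

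**Figure D1:**
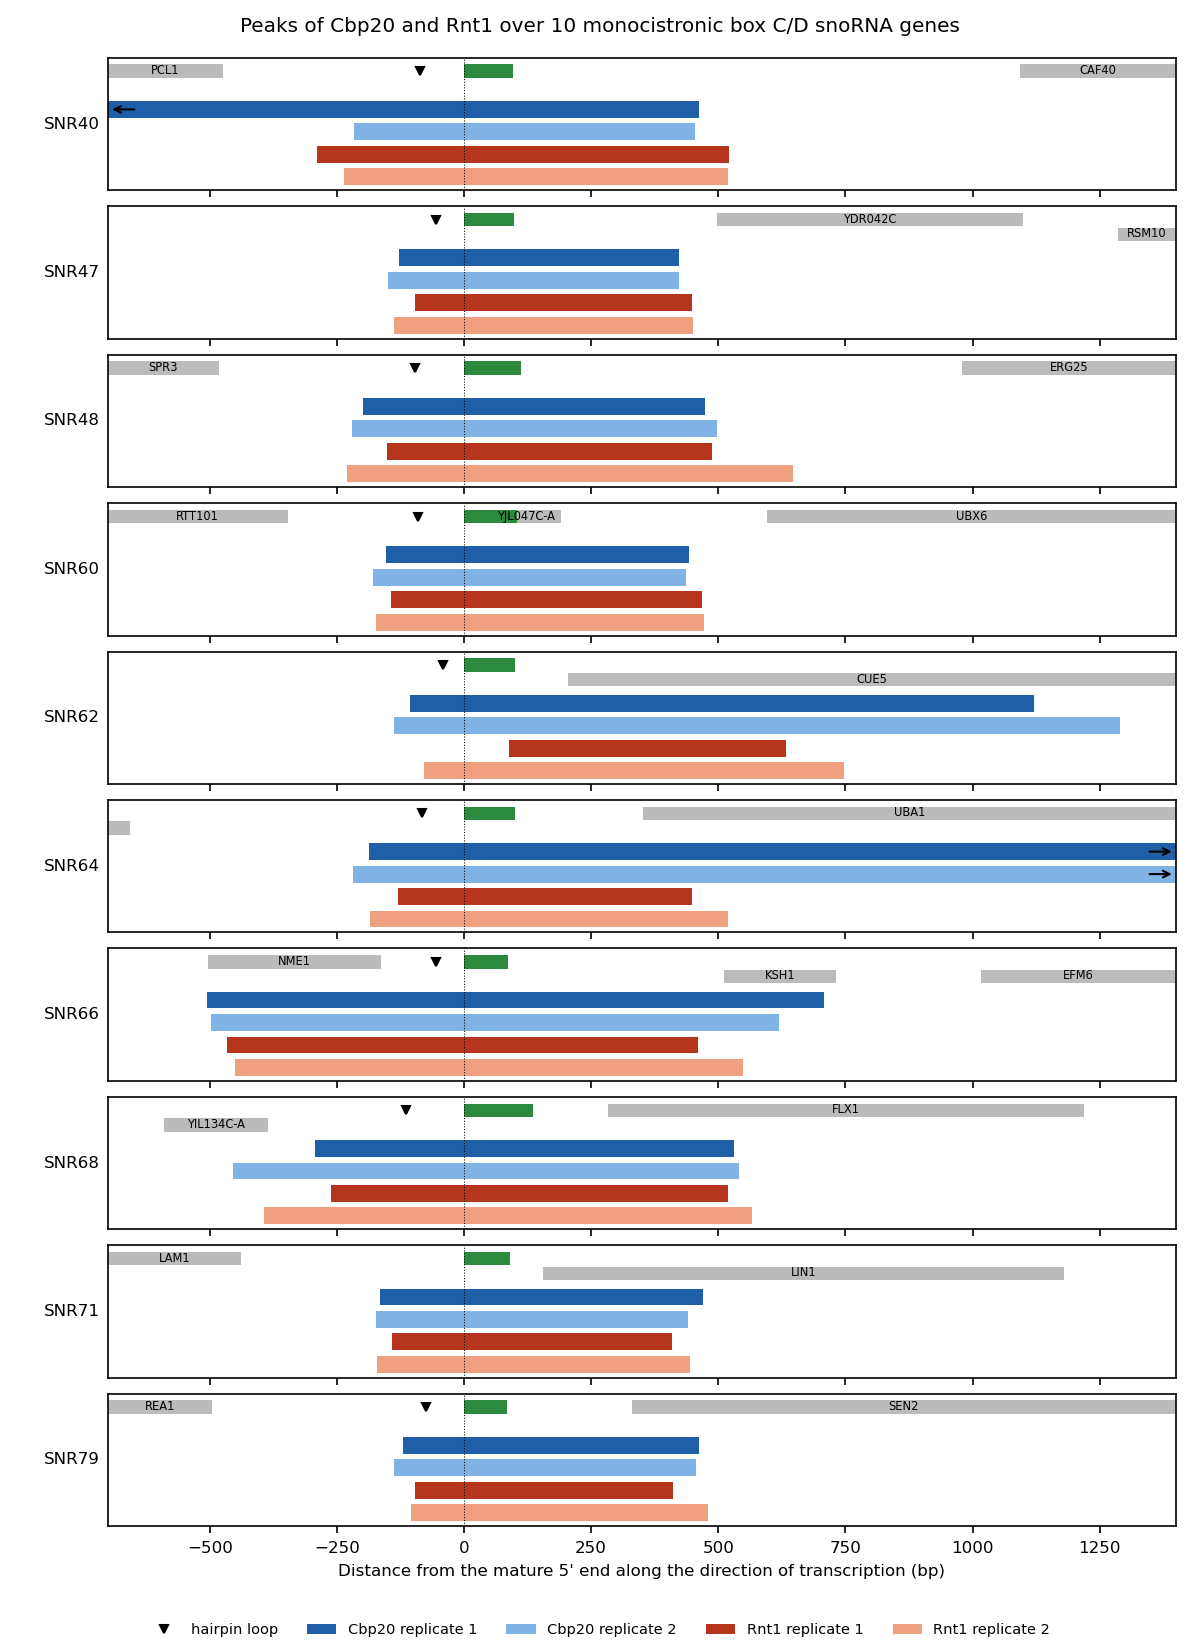
Peaks of the 4 libraries over the 10 genes, in bp from the mature 5′ end along the direction of transcription, with the mature snoRNA in green, neighbouring genes in grey, the hairpin loop as a triangle, and arrows where a peak leaves the panel. The 4 peaks have similar edges at SNR47, SNR60, SNR71 and SNR79, whereas the Cbp20 peaks at SNR62 and SNR64 run on for 1021 to 2928 bp past the mature 3′ end.

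To describe the peaks, upstream reach was measured in bp from the mature 5′ end to the upstream edge of the peak, and downstream reach from the mature 3′ end to the downstream edge. The SNR47 peaks, at chrIV:541278-541827 for Cbp20 replicate 1, reached 127 and 149 bp upstream for Cbp20 and 96 and 137 bp for Rnt1, so that the proteins overlapped. They ended 324 bp past the mature 3′ end in both Cbp20 replicates and at 350 and 352 bp in the Rnt1 replicates. Rnt1 thus ended 27 bp further on average, against a gap of at most 2 bp between replicates of a protein. No other gene lay under any SNR47 peak.

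SNR60 and SNR40 had the same order at the downstream edge. The SNR60 peaks ended 340 and 334 bp past the 3′ end for Cbp20 and 364 and 368 bp for Rnt1. Its upstream reaches, 154 and 179 bp for Cbp20 and 143 and 174 bp for Rnt1, overlapped. At SNR40 the downstream reaches were 366 and 358 bp for Cbp20 and 426 and 423 bp for Rnt1, a mean difference of 62.5 bp. In these 3 genes both Rnt1 values lay above both Cbp20 values. Upstream, Cbp20 replicate 1 stood apart at SNR40: its peak ran 1379 bp and took in the whole of PCL1, a G1 cyclin gene on the same strand 473 bp away, while Cbp20 replicate 2 stopped at 217 bp and the Rnt1 replicates at 290 and 236 bp.

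SNR48 peaks reached 198 and 221 bp upstream for Cbp20 and 152 and 231 bp for Rnt1. Downstream the values were 361 and 386 bp for Cbp20 and 375 and 535 bp for Rnt1. The groups overlapped at both edges, and the Rnt1 replicates differed by 160 bp at the downstream edge. No other gene lay under the SNR48 peaks in any library.

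SNR62 and SNR64 were the genes whose Cbp20 peaks continued far into a coding gene. At SNR64 the downstream reach was 2928 and 2846 bp for Cbp20 and 349 and 420 bp for Rnt1. The Cbp20 peaks covered 87.1% and 84.4% of UBA1, the gene of the ubiquitin-activating enzyme, which begins 251 bp downstream on the same strand, and the Rnt1 peaks 3.19% and 5.5% of it. The upstream reaches at SNR64 were 186 and 219 bp for Cbp20 and 129 and 185 bp for Rnt1, with Rnt1 replicate 2 only 1 bp inside Cbp20 replicate 1. Downstream of SNR62 lies CUE5, which encodes a ubiquitin-binding protein, on the opposite strand and 104 bp away. The SNR62 peaks reached 1021 and 1191 bp downstream for Cbp20 and 534 and 648 bp for Rnt1, and so covered 74.2% and 87.9% of CUE5 for Cbp20 and 34.8% and 44% for Rnt1. Upstream they reached 106 and 137 bp for Cbp20 and 79 bp for Rnt1 replicate 2, whereas the edge of Rnt1 replicate 1 fell 89 bp inside the gene, a reach of -89 bp. In both genes the Rnt1 peak was the shorter at both edges in both replicates. A peak that spans a snoRNA gene and its neighbour cannot be assigned to either of them.

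SNR66 shares its peaks with NME1, the gene of the RNase MRP RNA, a noncoding RNA that works in pre-rRNA processing, which ends 163 bp upstream on the same strand. Upstream reach was 506 and 497 bp for Cbp20 and 466 and 450 bp for Rnt1, the furthest of the 10 genes in all libraries except Cbp20 replicate 1, where SNR40 went further. The Cbp20 peaks covered 100% and 98.2% of NME1 and the Rnt1 peaks 89.1% and 84.4%. Downstream the peaks reached 622 and 535 bp for Cbp20 and 375 and 463 bp for Rnt1, and both Cbp20 peaks and the peak of Rnt1 replicate 2 ran into KSH1, a convergent gene. Rnt1 was the shorter at both edges here too.

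The SNR68 peaks reached 293 and 454 bp upstream for Cbp20 and 262 and 393 bp for Rnt1, with replicate 2 of either protein touching YIL134C-A, a small divergent open reading frame. Downstream they reached 396 and 406 bp for Cbp20 and 385 and 432 bp for Rnt1, all inside FLX1, which encodes a mitochondrial carrier, on the same strand. At SNR71 the upstream reaches were 165 and 173 bp for Cbp20 and 141 and 171 bp for Rnt1, and the downstream reaches 381 and 352 bp for Cbp20 and 320 and 355 bp for Rnt1. The proteins overlapped at both edges of SNR68 and of SNR71. SNR79 peaks reached 120 and 138 bp upstream for Cbp20 and 97 and 105 bp for Rnt1, so Rnt1 was the shorter, by 28 bp on average. Their downstream reaches overlapped, with 380 and 374 bp for Cbp20 and 327 and 396 bp for Rnt1, and all 4 ended inside SEN2, which encodes a subunit of the tRNA splicing endonuclease.

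**Figure D2:**
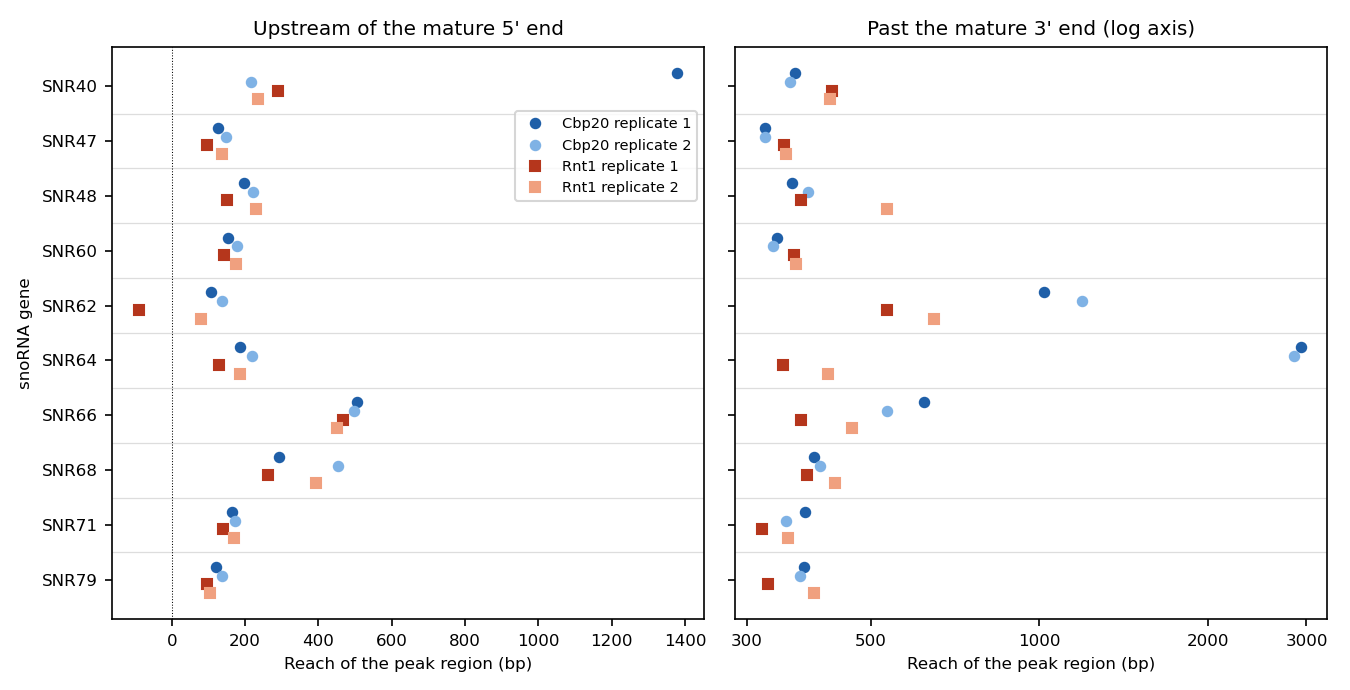
Reach of each peak upstream of the mature 5′ end (left, linear axis) and past the mature 3′ end (right, log axis) in bp, with 1 point for each of the 4 libraries at each of the 10 genes. Most upstream values lie between 79 and 293 bp. Further out lie SNR66 in all 4 libraries (450 to 506 bp) and SNR68 in replicate 2 of Cbp20 (454 bp) and of Rnt1 (393 bp). The most extreme points are SNR40 in Cbp20 replicate 1 at 1379 bp and SNR62 in Rnt1 replicate 1 at -89 bp.

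Taking the median over the 10 genes, upstream reach was 175.5 and 198 bp in the Cbp20 replicates and 142 and 179.5 bp in the Rnt1 replicates. Rnt1 was thus 26 bp the shorter, but Rnt1 replicate 2 lay between the Cbp20 libraries and the difference did not pass (exact two-sided permutation over the 4 libraries, p = 0.667). The mean in place of the median gave -88.5 bp (exact permutation, p = 0.333), and leaving out SNR40, with its single peak of 1379 bp reach, gave a median difference of -14.5 bp. Median downstream reach was 380.5 and 380 bp for Cbp20 and 369.5 and 421.5 bp for Rnt1. The Rnt1 libraries lay on either side of the Cbp20 ones, with a difference of 15.25 bp (exact permutation, p = 1). With 2 libraries against 2 the smallest possible p is 0.333, so this design could not have passed 0.05.

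Gene by gene, both Rnt1 upstream edges lay nearer the mature 5′ end than both Cbp20 edges in 4 of the 10 genes (SNR62, SNR64, SNR66 and SNR79), in none did both lie further out, and in 6 the proteins overlapped. Over the 975 nuclear genes with both proteins in both replicates, Rnt1 lay nearer without overlap in 66.6% and further out in 14.1%. At the downstream edge Rnt1 ended further without overlap in 3 genes (SNR40, SNR47 and SNR60), against 19.7% of those 975 genes, and short of Cbp20 in 3 (SNR62, SNR64 and SNR66), against 48.1%. These counts rested on single libraries. Without Cbp20 replicate 1 Rnt1 lay nearer upstream in 8 of 10 genes, against 70.7% of nuclear genes, and without Rnt1 replicate 2 in 9 of 10, against 81.5%. Without Rnt1 replicate 1 it ended further downstream in 6 of 10, against 24.9%. With all 4 libraries, the 4 genes with a nearer Rnt1 upstream edge each had another gene within 300 bp. That neighbour lay upstream only at SNR66, and downstream, away from the edge in question, at SNR62, SNR64 and SNR79. None of the 3 genes without a neighbour within 300 bp had a nearer Rnt1 upstream edge. Of these 3, SNR40 and SNR47 were among the 3 whose Rnt1 peaks ended further downstream. Whether the neighbours play a part in the edges was not tested.

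Replicate differences were as large as many of these contrasts. The upstream edge lay further out in replicate 2 than in replicate 1 in 8 of 10 genes for Cbp20, by a median of 22.5 bp, and in 8 of 10 for Rnt1, by 36 bp. Rnt1 peaks also ended further downstream in replicate 2 in 9 of 10 genes, by a median of 58 bp, and that list held more peaks (1741 against 1238). For Cbp20 the downstream edge was further in replicate 2 in 3 genes and nearer in 6, by a median of -6 bp.

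The bases under peaks of a protein in both replicates were also compared. At SNR47 this stretch was 550 bp for Cbp20 and 545 bp for Rnt1, of which 519 bp were common. Over the 975 nuclear genes with both proteins in both replicates, the Rnt1 stretch was the shorter in 76.5%, and more than 90% of it lay within the Cbp20 stretch in 77.2%. In the 10 genes the Rnt1 stretch was the shorter in 8, all but SNR60 and SNR40 (756 against 672 bp at the latter). More than 90% of it lay within the Cbp20 stretch in 9 of 10 genes, and 88.9% in SNR40. Conversely, the common stretch took up 44.4% of the Cbp20 stretch at SNR62 and 18.5% at SNR64, the genes where Cbp20 peaks ran on into CUE5 and UBA1.

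Another annotated gene lay under the same peak in both replicates for 7 of 10 genes with Cbp20 and 7 of 10 with Rnt1, the same genes for both: SNR60, SNR62, SNR64, SNR66, SNR68, SNR71 and SNR79. Over all nuclear genes with a peak in both replicates this held for 22.5% with Cbp20 and 32.7% with Rnt1. Those genes were not matched to the 10 for gene length, so the shares are not like for like. Among the other RD genes it held with Cbp20 for SNR56, SNR58, SNR63, SNR65 and SNR87, and with Rnt1 for SNR56, SNR63 and SNR65. Among the capped genes it held with either protein for SNR4, SNR13, SNR17A and SNR17B. At SNR71 the peaks covered 24.8% to 30.8% of LIN1, at SNR68 25.3% to 30.3% of FLX1 and at SNR79 7.14% to 13.2% of SEN2.

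Set against the hairpins printed above, the AGNN loop lay under the Cbp20 peak in both replicates in 6 of 6 genes that have one by the stricter rule, and under the Rnt1 peak in 6 of 6. Over all nuclear genes with such a hairpin anywhere among the bases searched and with a peak of the protein on the gene in both replicates, the loop was covered in 23% of 235 genes for Cbp20 and in 38.5% of 117 genes for Rnt1. Those genes were not matched to the 6 for gene length or for the distance of the loop, so the shares are not like for like. With SNR48, SNR60 and SNR62 added, the loop was under the peak in all 4 libraries in 8 of 9 genes. SNR62 was the exception: its loop, 43 bp upstream, was covered in 3 of 4 libraries, and the Rnt1 replicate 1 edge stopped 132 bp short of it. The SNR79 loop was nearest the edge among the rest, with the edges 44 and 62 bp beyond it for Cbp20 and 21 and 29 bp for Rnt1. The SNR47 edges lay 70 and 92 bp beyond its AGAA loop for Cbp20 and 39 and 80 bp for Rnt1. The median over the 9 genes was 100 and 123 bp beyond the loop for the Cbp20 replicates and 52 and 101 bp for the Rnt1 replicates.

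**Figure D3:**
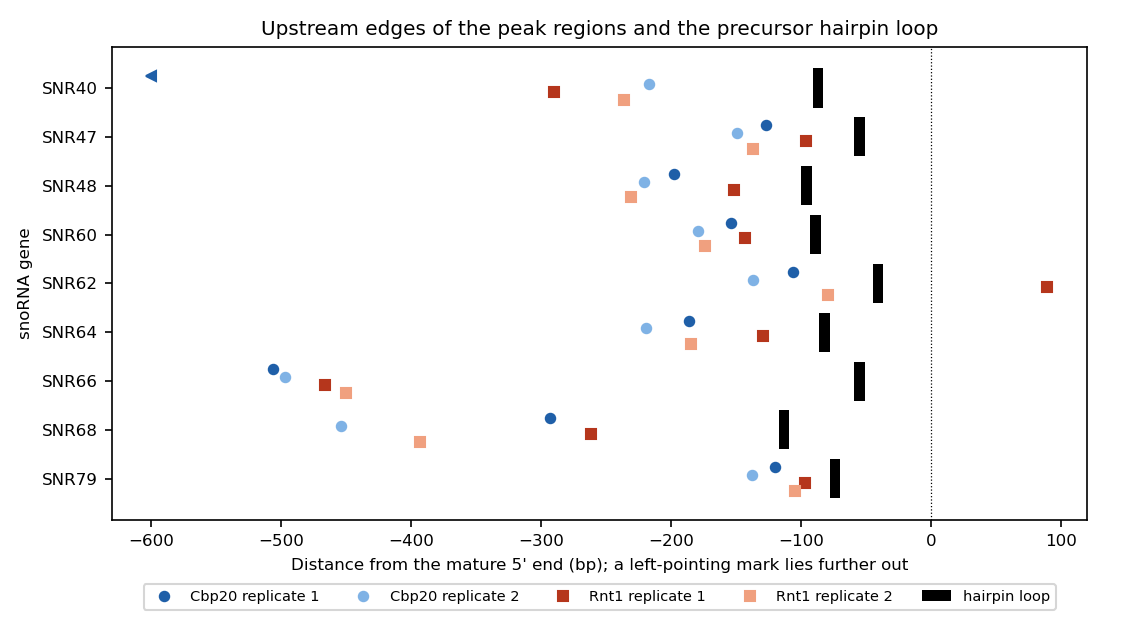
Upstream edges of the peaks (points) and tetraloops (black bars) in bp from the mature 5′ end, for the 9 genes with a hairpin under any of the rules. All edges lie upstream of the loop except that of Rnt1 replicate 1 at SNR62, and the left-pointing mark at SNR40 stands for 1379 bp.

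The same positions were measured in the other RD genes. Of the 5 with an AGNN hairpin by the stricter rule (SNR58, SNR63, SNR65, SNR69 and SNR87), the loop was under the Cbp20 peak in both replicates in 5 and under the Rnt1 peak in both in 1, SNR87. The Rnt1 edges stopped 19 and 31 bp short of the loop at SNR63 and 48 bp short in both replicates at SNR65. SNR58 and SNR69 lacked a replicated Rnt1 peak and so could not count for Rnt1. Median upstream reach in that class was 138 and 154 bp for Cbp20, and 63 bp over 5 genes and 51 bp over 7 genes for the Rnt1 replicates. In the 10 genes described here the corresponding Rnt1 medians were 142 and 179.5 bp. Of the 5 other RD genes with both proteins in both replicates, Rnt1 lay nearer upstream without overlap in 5, against 4 of the 10. At the downstream edge Rnt1 ended short of Cbp20 in 4 of those 5, against 3 of the 10. The capped genes had Cbp20 medians of 5 and 15 bp and Rnt1 values spread from -104 to 1113 bp. The furthest Rnt1 values came from peaks that also covered an upstream ribosomal protein gene. These were 967 and 1055 bp at SNR4, with 100% of RPS26B, and 1113 bp at SNR13 in replicate 2, with 95.5% of RPL27B. The classes also differ in their surroundings. SNR39B, SNR56, SNR63, SNR65 and SNR87 each have a ribosomal protein gene as the nearest gene on 1 side, and none of the 10 genes does. Among the capped genes SNR4, SNR13 and SNR17B have one as the nearest upstream gene. Whether these neighbours play a part was not tested. Genes of a class share their libraries and the sets were assembled with results of these data known, so the differences between classes were not tested.

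**Figure D4:**
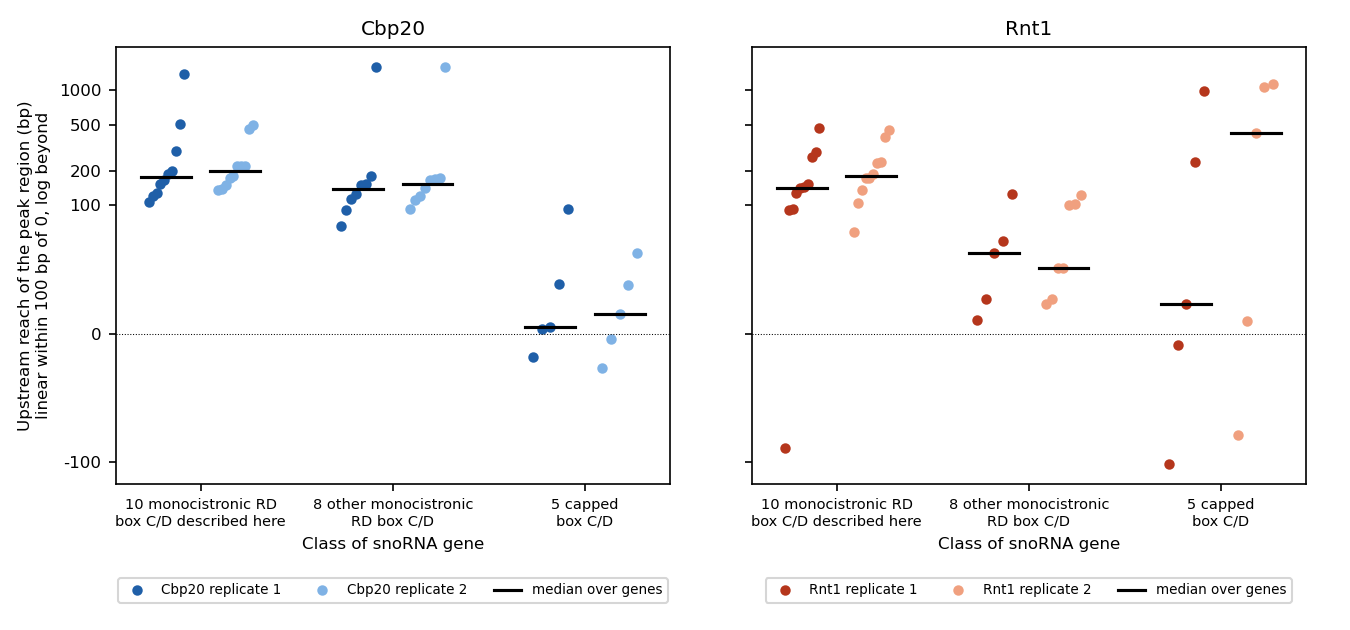
Upstream reach in bp of Cbp20 peaks (left) and Rnt1 peaks (right), with 1 point per gene carrying a peak and bars at the median, for the 10 genes described here, the 8 other monocistronic RD box C/D genes and the 5 capped box C/D genes. The axis is linear within 100 bp of 0 and logarithmic beyond; the Rnt1 medians are 142 and 179.5 bp in the 10 genes, and 63 and 51 bp in the 8 others.

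Past the mature 3′ end, the 150 bases of sense strand were searched for GTAA and GTAG, the letters read by Nrd1, and TCTT, read by Nab3 (GTAG can share its last base with a following motif). A Nrd1 motif was present in 9 of 10 genes, all but SNR71, against 66.7% of windows of the same length past all nuclear genes, and a Nab3 motif in 10 of 10 against 67.3%. The median number was 3 for Nrd1 and 2.5 for Nab3, against 1 and 1 for all genes. Both were present in 9 of 10 genes and in 43.6% of all. Of the other 8 RD genes 7 held both, and of the 5 capped genes 4. SNR47, with 3 Nrd1 and 6 Nab3 motifs, and SNR71, with 0 and 2, are printed as the genes with the most and the fewest motifs of both kinds summed, motifs in capitals.
SNR47 (chrIV:541452-541601, - strand): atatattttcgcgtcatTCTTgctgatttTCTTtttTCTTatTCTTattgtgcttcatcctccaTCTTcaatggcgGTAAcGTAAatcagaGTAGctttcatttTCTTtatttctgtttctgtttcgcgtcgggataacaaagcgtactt
SNR71 (chrVIII:411318-411467, + strand): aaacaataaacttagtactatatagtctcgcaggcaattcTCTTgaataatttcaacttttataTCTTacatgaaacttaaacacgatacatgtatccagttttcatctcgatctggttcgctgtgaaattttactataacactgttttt

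All of these motifs lay under the peaks of both proteins, because the downstream edges were at least 320 bp past the mature 3′ end in every library. The lowest downstream reaches were 320 bp at SNR71 in Rnt1 replicate 1 and 324 bp at SNR47 in both Cbp20 replicates. A match of 4 letters is a description of the sequence and not a binding site.

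At the other side, the 400 bases upstream were searched on both strands for ACCCTAA, the motif of Tbf1, a factor known to bind many snoRNA promoters in yeast. It was found upstream of 2 of the 10 genes, SNR48 and SNR71, and of 3.33% of all nuclear genes. Of the other 8 RD genes 2 had it, and of the 5 capped genes 1, so it was not particular to the 10. The motif is in capitals below with 10 bases on either side.
SNR48 (chrVII:609211-609237, + strand): aagtagcaaaACCCTAAcaatacaatg
SNR71 (chrVIII:410915-410941, + strand): tgtggtgctaACCCTAAgtactttttt

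The SNR48 motif lay 357 to 363 bp upstream of the mature 5′ end, and the SNR71 motif 297 to 303 bp. Both were outside the peaks of all 4 libraries. The upstream edges stopped 159 and 136 bp short of the motif for Cbp20 and 205 and 126 bp short for Rnt1 at SNR48. At SNR71 the gaps were 132 and 124 bp for Cbp20 and 156 and 126 bp for Rnt1.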

How the data were processed

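Per the authors' methods, read pairs were aligned to sacCer3 with Bowtie2, uniquely mapped reads with a mapping quality of at least 30 were kept, and peaks were called with MACS2 at default options and kept at a q-value under 0.05. The deposited lists give chromosome, start and end in bp, 1 list per library. The versions of these tools and the use of input DNA are not given in the sources used here. RNA-seq samples, 7 in number, were left out.

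Peak starts were raised by 1 to count positions from 1, and no peak ran past a chromosome end of the RefSeq R64 reference, which supplied genes, target bases and sequences. Overlaps, reaches and exact permutations were computed in Python 3.11.15 with numpy 2.4.6, and hairpins with RNAfold (ViennaRNA 2.7.2). The scripts were tested on simulated data. Named genes were all 10 genes, every gene under their peaks, the nearest gene on each side, and genes of the comparison classes where a result turned on one. The genes, lists and tests were chosen with earlier results of these data known. Alternatives covered peak width, overlap, limits on reach, joined peaks, isolated genes, mean against median, stem length and each replicate left out.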

Additional observations from a re-analysis of the deposited data

How the results depend on the processing

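Under the alternatives run, the count of genes with a peak stayed at 9 to 10, with the AGNN loop under a peak at 5 to 8 and with a neighbour under the same peak at 7 to 8. The difference in downstream reach (15.25 bp) changed sign with the mean in place of the median (-301.4 bp, exact permutation p = 0.333) and with the median of each gene's own difference (-4 bp, chosen after seeing the data). SNR62 and SNR64 carried the largest differences at that edge, and without them it was 20 bp. Leaving out 1 library at a time gave -10.75 bp (without Rnt1 replicate 2) to 41.25 bp (without Rnt1 replicate 1), and -44.75 to -7.25 bp for the upstream difference (-26 bp). The count of genes whose Rnt1 peak starts nearer the 5′ end, 4 of 10, was 0 of the 3 genes with no other gene within 300 bp. It ranged from 4 to 9 with 1 library left out, with 8 without Cbp20 replicate 1 and 9 without Rnt1 replicate 2. The count whose Rnt1 peak ends further, 3, ranged from 3 to 6, with 6 without Rnt1 replicate 1. With same-numbered libraries as a replicate block the differences were -26 bp upstream (exact sign-flip p = 0.5) and 15.25 bp downstream (p = 1), the smallest possible p being 0.5. Deviations of same-numbered libraries correlated with r = 0.598 upstream and 0.289 downstream over 10 genes, but with 2 pairs and only replicate 2 numbered in the labels, the numbers were not taken as a pairing. An edge marks where the signal crossed the caller's threshold at an unknown depth, so distances carry no counting error, and a gene outside a list is one without a call, not one without the protein.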
